A study of Mus musculus with 2 samples.

Results

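The 8 genes of T cell quiescence and lymphoid homing, Tcf7, Lef1, S1pr1, Klf2, Klf3, Id3, Satb1 and Bach2, were followed through the T cells of mouse melanomas. They were chosen by name for their textbook roles, but with earlier results of these data known. They are 8 of the 31053 mouse genes in the count matrix, of which 17050 had at least 1 UMI in a kept cell. A UMI, a unique molecular identifier, marks 1 captured RNA molecule, and levels are summed UMIs of a gene per 1000000 UMIs of all mouse genes in a group of cells (CPM).

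A resting T cell that recirculates through lymph nodes keeps a program of low metabolism and readiness to home. TCF-1 and LEF-1, the products of Tcf7 and Lef1, maintain naive and memory-like states, and KLF2 turns on S1pr1, the receptor for sphingosine-1-phosphate that lets T cells leave lymphoid organs. ID3, which blocks E proteins, BACH2, a repressor of effector genes, SATB1, an organizer of chromatin, and KLF3, a repressor related to KLF2, are further regulators of the resting state, and most of these genes are known to be lowered as T cells become effectors.

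The cells were T cells sorted from transplanted B16 melanomas and from B16-IL33 melanomas, a B16 line engineered to express the cytokine IL-33, grown in mice that all had a C57BL/6 background. Cells of both tumors were marked with hashtag antibodies, pooled and run as 1 droplet library with matching T cell receptor and hashtag libraries, with 2 hashtags for each tumor. No label says that the hashtags are separate mice, so the values of each are given side by side and no test was made. Neither the age of the mice nor the number of animals behind a hashtag was given in the sources used here, and no drug or other treatment was applied. Intervals are exact 95% intervals of counting error alone, without the spread between mice. Those of levels and ratios take each UMI as independent and also leave out the spread between cells.

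Of 14035 barcodes, 9082 (64.7%) had between 200 and 2500 detected genes and under 5% mitochondrial UMIs, and these held 26607833 mouse UMIs. Lineage was read from the transcripts of lineage genes. CD8 cells (n = 1259) had more UMIs of Cd8a and Cd8b1 than of Cd4 and Foxp3, Treg (regulatory T cells, n = 2609) had Foxp3 and no Cd8 UMI, Tconv (conventional CD4 T cells, n = 1769) had Cd4 with neither Foxp3 nor Cd8, and NKT cells (n = 81) had Zbtb16 with neither Foxp3 nor Cd8. The other 3385 kept cells (37.3%), shallower at a median of 2004 UMIs, showed no such combination, and 21 cells were both Tconv and NKT. Median depth was 3464 UMIs in CD8 cells, 2780 in Treg, 2498 in Tconv and 2939 in NKT cells, and shares of cells with a UMI were therefore taken after each cell was thinned at random to 1500 UMIs. Markers bore out the Treg name: a list without Foxp3 (Il2ra, Ikzf2, Ctla4, Tnfrsf18, Tnfrsf4) reached 5134 CPM in Treg and at most 1857 in the other lineages. A CD8 list (Nkg7, Ccl5, Cd8a, Cd8b1, Eomes) reached 11920 CPM in CD8 cells and at most 2175 in the other lineages. Since Cd8a and Cd8b1 also define the groups, this contrast was partly fixed in advance and does not by itself bear out the CD8 name. The Tconv list (Cd4, Cd40lg, Il7r, Icos, Tnfsf8) was near-equal in Tconv and Treg at 1499 and 1426 CPM. The Treg list stood at 1857 CPM in Tconv against 858 in CD8 cells. A Treg whose Foxp3 RNA was not read would be counted as Tconv, and the part of such cells in the Tconv results was not tested. For the NKT name, the invariant alpha chain was taken as Trav11 or Trav11d joined with Traj18 in 1 productive chain. It was found in 16 of 27 NKT cells with an alpha chain read (59.3%, 38.8 to 77.6) and in 17 of 802 Tconv (2.12%). In CD8 cells it was found in 0 of 626, which allows up to 0.479%. Genes of gamma delta T cells stood at 122 CPM in the NKT cells and at 13.3 or less in the other groups, so that this group was mixed.

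A reference for stray RNA came from 263 barcodes with no Cd3 UMI and at least 3 UMIs of myeloid genes. Such cells should lack Tcf7 and Lef1 RNA, and whether they lack that of the other members was not tested. Tcf7 stood at 22.9 CPM in these barcodes, Lef1 at 9.81, S1pr1 at 8.72, Id3 at 19.6, Satb1 at 30.5 and Bach2 at 1.09. Klf2 at 413 CPM and Klf3 at 63.2 were at T cell levels there, and myeloid cells are no blank for these genes, which they are known to use themselves.

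To show what stands at the start of these genes, promoter windows from 250 bases before to 50 after each start were taken from RefSeq (GRCm38.p6), where 7 of the 8 genes had 15 windows and S1pr1 had none. The letters searched were CACCC, the core of the box that KLF factors bind, and CTTTGA, the core of the TCF and LEF site, each on both strands (GGGTG and TCAAAG on the other strand). CACCC was in at least 1 window of 6 of the 7 genes, all but Bach2, and in 57.5% of all windows. CTTTGA was in windows of 2 genes, Lef1 (1 of 4 windows) and Bach2, and in 5257 of all 32851 windows. A gene was counted with a match in any of its windows, up to 5 for Satb1. These counts of genes are therefore not comparable with the shares of single windows. The upstream stretches of Klf2 and Lef1 are printed because the windows of both hold the box and of the printed stretches only that of Lef1 does. Both run on the plus strand, end before the first annotated start, and carry CACCC or GGGTG in capitals. For Klf2 the stretch is chr8:72318812-72319032, which is 71.5% G or C and holds 0 matches, the match of its window lying past the cut. For Lef1 it is chr3:131110047-131110296, which is 66.4% G or C and holds 3.
Klf2: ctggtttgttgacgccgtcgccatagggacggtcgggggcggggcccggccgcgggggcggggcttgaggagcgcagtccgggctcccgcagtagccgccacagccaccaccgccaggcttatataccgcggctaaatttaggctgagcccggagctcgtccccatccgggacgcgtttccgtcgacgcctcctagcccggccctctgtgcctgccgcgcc
Lef1: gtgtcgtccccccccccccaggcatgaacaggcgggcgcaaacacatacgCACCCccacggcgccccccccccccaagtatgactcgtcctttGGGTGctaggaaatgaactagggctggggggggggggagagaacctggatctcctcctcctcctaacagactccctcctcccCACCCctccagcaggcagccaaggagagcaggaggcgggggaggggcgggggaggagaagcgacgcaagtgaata

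The TCF family members were high in Tconv and NKT cells and low in Treg. Tcf7 (ENSMUSG00000000782, GRCm38 chr11:52252371-52283014, minus strand) reached 265 CPM in Tconv (251 to 280, 1332 UMIs), 212 in NKT cells (161 to 273, 59 UMIs), 155 in CD8 cells (144 to 166, 782 UMIs) and 49.6 in Treg (44.9 to 54.7, 410 UMIs). The NKT interval overlapped those of Tconv and CD8 cells, and the Treg interval lay below all others. After thinning, 30.3% of Tconv, 25.3% of NKT cells, 20.3% of CD8 cells and 6.22% of Treg had a Tcf7 UMI, against 1.67% of myeloid cells, and without thinning these shares were 39.6, 42.0, 35.0, 10.2 and 6.46%. Lef1 (ENSMUSG00000027985, chr3:131110471-131224356, plus strand) kept the same order, at 141 CPM in Tconv, 129 in NKT cells, 88.1 in CD8 cells and 56.4 in Treg, and was seen in 18.5, 19.0, 12.6 and 8.12% of thinned cells. Lef1 thus varied less between lineages than Tcf7 did, and its Treg level was still above the myeloid one.

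In the exit program, the receptor and its activator had different orders. S1pr1 (ENSMUSG00000045092, chr3:115710433-115715072, minus strand) was highest in Tconv at 113 CPM (104 to 123), and stood at 60.6 in CD8 cells, 46.7 in NKT cells (13 UMIs) and 43.6 in Treg. The last 3 were close, and the NKT interval (24.9 to 79.9) covered both neighbours. Klf2 (ENSMUSG00000055148, chr8:72319033-72321656, plus strand) was read in every T cell group, at 916 CPM in Tconv, 681 in Treg, 622 in CD8 cells and 334 in NKT cells (93 UMIs). Its share of thinned cells ran from 54.1% of Tconv, 46.7% of CD8 cells and 42.7% of Treg to 27.8% of NKT cells, the last below the 31.7% of myeloid cells. Klf3 (ENSMUSG00000029178, chr5:64803388-64832901, plus strand) had 103 CPM in Tconv, 101 in NKT cells, 70.9 in CD8 cells and 40.7 in Treg. Treg therefore combined a Klf2 level above that of CD8 cells with the lowest Klf3 and S1pr1 levels of the 4 lineages, the S1pr1 values of Treg and NKT cells overlapping.

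Among the remaining members, Id3 and Satb1 had orders of their own. Id3 (ENSMUSG00000007872, chr4:136143497-136145755, plus strand) was led by CD8 cells at 81.2 CPM (410 UMIs), with 57.5 in NKT cells (16 UMIs), 30.7 in Tconv and 18.4 in Treg. The Treg share of 2.09% of thinned cells was below the myeloid 2.78%. It cannot be told apart from background, though myeloid cells may not be a blank for Id3. Satb1 (ENSMUSG00000023927, chr17:51736187-51833290, minus strand) was the only member with a higher level in Treg than in Tconv. It had 481 CPM in NKT cells (134 UMIs), 281 in Treg (2321 UMIs), 243 in Tconv (1220 UMIs) and 169 in CD8 cells (856 UMIs). It was seen in 53.2, 29.7, 27.5 and 21.0% of thinned cells. Bach2 (ENSMUSG00000040270, chr4:32238804-32586108, plus strand), in the order of Tcf7, was the most sparsely counted, with 29.5 CPM in Tconv (148 UMIs), 25.2 in NKT cells (7 UMIs), 22.0 in CD8 cells (111 UMIs) and 5.33 in Treg (44 UMIs). Its thinned shares of 4.15, 5.06, 3.65 and 0.882% leave little room below the Treg value, the myeloid share being 0.556%.

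**Figure D1:**
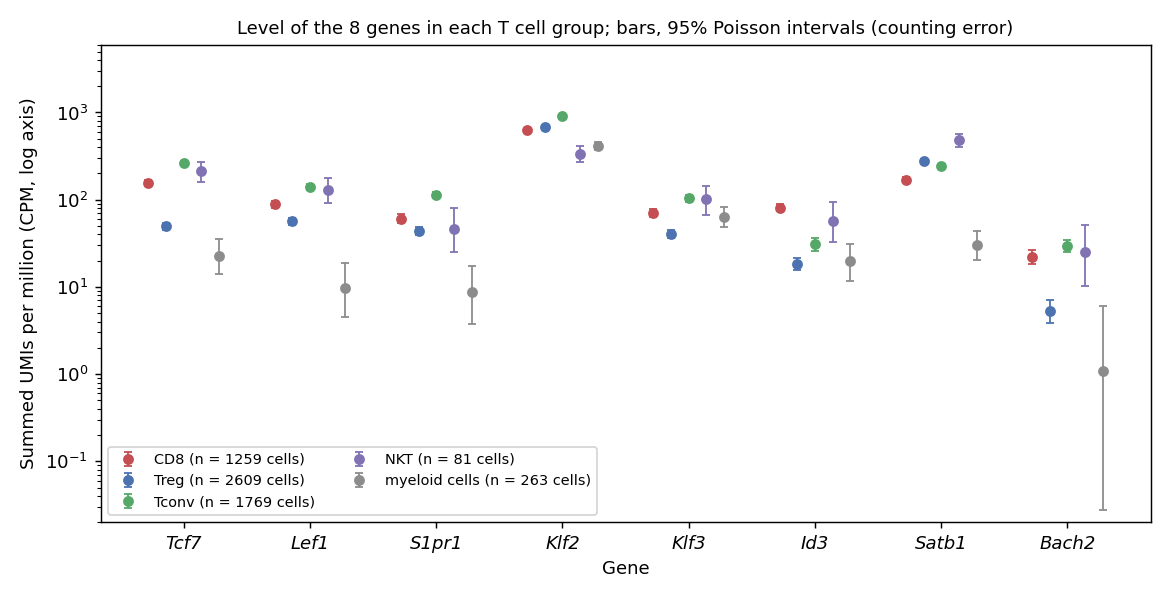
Level in CPM (log axis) of each of the 8 genes in CD8, Treg, Tconv, NKT and myeloid cells of 1 library, with 95% Poisson intervals as bars. Treg points lie lowest of the 4 T cell lineages for Tcf7, Lef1, S1pr1, Klf3, Id3 and Bach2, while Satb1 is highest in NKT cells (481 CPM) and Klf2 in Tconv (916 CPM).

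Set against Tconv, Treg had less of most of the set. The genes Tcf7, Lef1, S1pr1, Klf3, Id3 and Bach2 were at least 1.5-fold lower, that is 6 of 8 members, and 5 of the 7 with at least 200 UMIs over both groups. Of the 6046 genes with that many UMIs, 3.51% were this much lower in Treg and 10.0% this much higher. The median Treg to Tconv ratio was 0.397 over the 8 members and 1.08 over all genes. Tcf7 was 5.35-fold lower (4.78 to 5.99) and Bach2 5.54-fold lower (3.93 to 7.94, from 44 and 148 UMIs), followed by S1pr1 (2.60-fold, 2.28 to 2.98), Klf3 (2.54-fold) and Lef1 (2.50-fold). Id3 is in the count, but no fold is read from it, since its Treg level was that of myeloid cells. Klf2 had a ratio of 0.743 (0.715 to 0.773), and Satb1 went the other way at 1.16 (1.08 to 1.24).

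A list of 24 further genes of quiescence and homing divided in the same comparison, with 7 of 24 at least 1.5-fold lower in Treg and 2 of 24 higher (median ratio 0.822). The lowest were Dapl1 (0.252), Pik3ip1, an inhibitor of PI3K (0.368), Rasgrp2, an activator of the integrin switch RAP1 (0.390), Ccr7, the lymph node chemokine receptor (0.428), and Zfp36l2, an RNA decay factor (0.550). Higher were Cd27, a costimulatory receptor (2.24), and Itgb7, the beta chain of the gut homing integrin (1.54). Of 21 counted genes of an opposing list of effector, tissue and checkpoint genes, 12 were higher in Treg, led by Klrg1 (3.90), Itgae (3.48), Gzmb (3.36), Tnfrsf9 (3.26) and Ikzf2 (3.07), and 1 was lower, Cxcr6 (0.651). Part of these, Ikzf2 among them, are Treg genes in their own right.

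CD8 cells differed from Tconv in a milder way. In all, 3 members were at least 1.5-fold lower, S1pr1 (1.87-fold, 1.63 to 2.16), Tcf7 (1.71-fold, 1.57 to 1.88) and Lef1 (1.60-fold, 1.42 to 1.80), and 1 member, Id3, was 2.65-fold higher (2.19 to 3.20). Klf2, Klf3, Satb1 and Bach2 had ratios between 0.679 and 0.745. Over 4987 genes, 7.76% were lower and 3.13% higher by this rule, and the median ratio was 0.926, against 0.682 for the members. Of the 24 further genes, 6 were lower and 0 higher, the lowest being Il7r, the interleukin-7 receptor (0.415), Runx1 (0.425), Itgb7 (0.524), Ccr7 (0.632) and Foxo1, a factor upstream of Klf2 (0.656). Also lower in CD8 cells were 6 of 10 immediate early genes, which are switched on within minutes of stimulation or cell handling. Their part in the member ratios was not tested, and without the cells holding a UMI of Fos, Fosb or Egr1, a choice made after seeing the data, 8 members passed the fold in place of 4.

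NKT cells stood apart from Tconv in 4 members. After the 21 shared cells were taken out of Tconv, Satb1 was 2.04-fold higher (1.69 to 2.44) and Id3 1.92-fold higher (1.07 to 3.22, 16 UMIs), while Klf2 was 2.77-fold lower (2.26 to 3.44) and S1pr1 2.45-fold lower (1.42 to 4.64, 13 UMIs). With lineage genes counted from 2 UMIs the S1pr1 ratio turned to 1.98. By the same rule 4.51% of the 3190 genes with at least 200 UMIs over both groups were higher and 16.6% lower. Of the 6 members with that many UMIs, 1 was higher and 2 were lower, Id3 not being among them. Tcf7, Lef1, Klf3 and Bach2 had ratios between 0.801 and 0.972, each with an interval that included 1. The Satb1 level was uneven within the mixed NKT group. It was 278 CPM (162 to 445) in the 16 cells with the invariant alpha chain, whose interval held the 237 of these Tconv. It was 413 in the 59 NKT cells of clones of 1 cell and 702 in the 21 with no clonotype. The latter had myeloid genes at 1769 CPM, whose part was not tested.

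The next comparison asked how the genes lay among cells whose T cell receptor was found once and cells of expanded clones. Among kept cells 5448 had a clonotype, and a clone was counted as larger when at least 2 cells of the receptor table held it. In CD8 cells, 669 cells were the only one of their clone and 252 belonged to larger clones, with median depths of 3892 and 4581 UMIs.

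All 8 genes were at least 1.5-fold higher in CD8 clones of 1 cell, among them all 7 with at least 200 UMIs over both groups. Of the 2352 genes with that many, 3.19% were so and 3.91% were lower. The members' median ratio was 2.68, against 0.960 for all genes. Tcf7 had 192 CPM in clones of 1 cell (562 UMIs) and 57.1 in larger ones (70 UMIs), a ratio of 3.37 (2.63 to 4.38). Id3, at 98.5 against 35.9 CPM, had a ratio of 2.75, Satb1, at 190 against 70.1, one of 2.70, and Lef1, at 108 against 39.9, one of 2.70. Bach2 (23.9 against 8.97 CPM, 2.67, from 70 and 11 UMIs), Klf3 (77.7 against 33.4, 2.32) and S1pr1 (68.1 against 35.0, 1.94) followed. The smallest difference was that of Klf2, at 652 against 409 CPM (1.59, 1.44 to 1.76). In thinned cells Tcf7 was seen in 25.9% of clones of 1 cell and 6.94% of cells of larger clones, and Satb1 in 23.7 and 7.35%, whereas for S1pr1 the shares were near, at 8.58 and 7.35%. CD8 cells in which no clonotype was read had Tcf7 at 166 CPM, Klf2 at 814 and Satb1 at 239, the last pair above the clones of 1 cell, and had myeloid genes at 1027 against 204 CPM, whose part was not tested.

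Of 125 CD8 clones, 73 had at least 2 kept CD8 cells, and in these Klf2 was read in at least 1 cell of 61 clones and in all cells of 18, while Tcf7 was read in at least 1 cell of 28 and in all cells of 5. The largest clone in CD8 cells had 13 of them, and Tcf7, Lef1, Id3 and Bach2 were read in 0 of these, Klf3 in 1, S1pr1 in 2, Klf2 in 3 and Satb1 in 4. Cells of a clone descend from 1 founder and are not independent samples of the condition.

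In Treg (1525 and 180 cells) the difference was narrower. Here 3 members passed the fold, and of the 6 with at least 200 UMIs over both groups 2 did, Tcf7 and Lef1. Of the 3825 genes with that many, 2.20% were higher and 1.28% lower. Tcf7 had 56.1 against 12.7 CPM (4.43, 2.22 to 10.4, 314 against 8 UMIs). Id3 had 17.0 against 4.75 CPM (3.58, 1.19 to 17.7, 95 against 3 UMIs), and Lef1 had 59.1 against 34.8 CPM (1.70, 1.10 to 2.75). Both Id3 levels were under the myeloid one, which leaves that ratio without a reading, and the Tcf7 level of the larger clones was under it as well. With larger clones of at least 3 cells, the Lef1 ratio was 0.821. Satb1, Klf2, Bach2, Klf3 and S1pr1 had ratios between 1.17 and 1.31. Only that of Klf2 (1.18, 1.05 to 1.32) had an interval above 1. The 342 Klf2 UMIs of the larger clones came from 78 cells, with up to 24 in 1 cell, which the interval does not cover.

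In Tconv (1052 and 128 cells), where the count changed with the clone rule, 5 of 8 members were past the fold. Of the 6 members with at least 200 UMIs over both groups 3 were past it, Lef1, Satb1 and Tcf7. Among the 2369 genes with that many, 2.95% were higher and 3.71% lower. Lef1 had 153 against 60.1 CPM (2.54, 1.70 to 3.96), Satb1 240 against 130 (1.85, 1.40 to 2.48) and Tcf7 286 against 180 (1.59, 1.26 to 2.04). Bach2 was at 3.95 with 97 against 3 UMIs (1.31 to 19.5), and Id3 lay just past the fold with 10 UMIs in larger clones and an interval that included 1 (0.790 to 3.21), and its ratio was 0.964 with clones counted within the lineage. Apart from Bach2 with its 3 UMIs, Lef1 thus had the largest of the member ratios in Tconv, where Tcf7 had it in CD8 cells. Whether the lineages differ in these ratios was not tested.

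**Figure D2:**
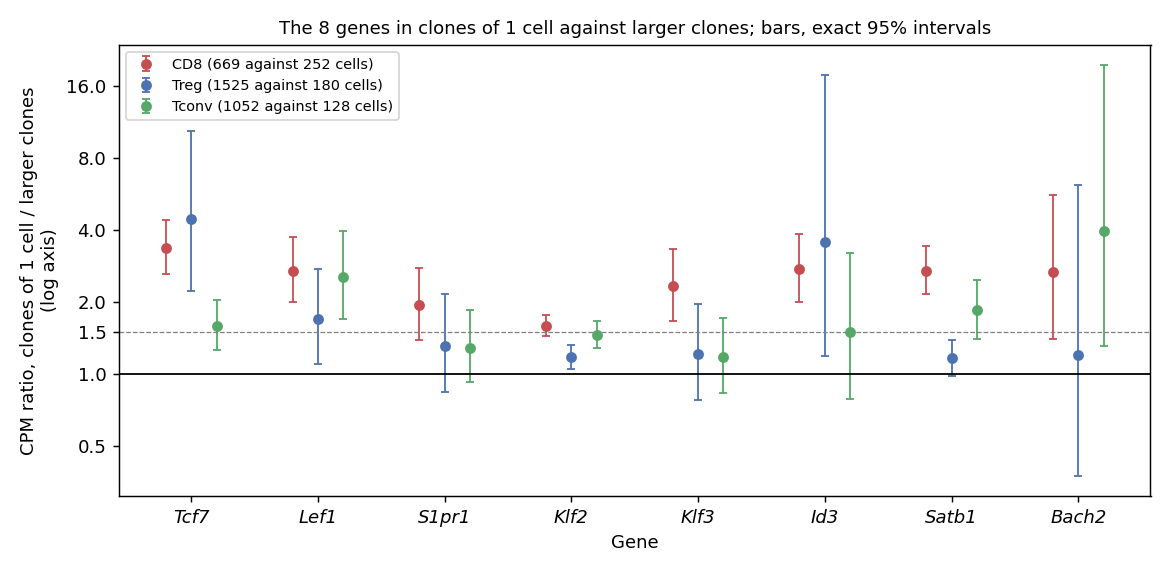
CPM ratio (log axis) of clones of 1 cell to larger clones for the 8 genes in CD8 cells, Treg and Tconv, with exact 95% intervals as bars, a solid line at 1 and a dashed line at 1.5. All 8 CD8 points are above the dashed line, from 1.59 for Klf2 to 3.37 for Tcf7, and the widest bars belong to genes with 3 UMIs in the larger clones.

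Some genes of the further quiescence and homing list went with the members in CD8 clones, at a median ratio of 1.25 over those counted. Of 19 counted genes of the further list, 7 were at least 1.5-fold higher in clones of 1 cell, among them Il7r (3.98), Ccr7 (3.88), Foxp1, a factor of T cell quiescence (2.08), and Txk, a kinase of resting T cells (2.05). Of 16 counted opposing genes 5 were lower, namely Gzmb (0.458), Havcr2 (0.491), Pdcd1 (0.525), Lag3 (0.557) and Cxcr6 (0.586), and 2 were higher, Ikzf2 (2.68) and Cd69 (1.68). In Treg 2 of 21 further genes were higher, Ccr7 (3.99) and Txk (1.52), and in Tconv 3 of 19, Ccr7 (5.34), Foxp1 (1.82) and Il7r (1.56). Of the opposing genes, 0 of 20 in Treg and 2 of 14 in Tconv were lower in clones of 1 cell, the latter Cxcr6 (0.550) and Klrg1 (0.664).

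Values that moved with clone size were the following, and their part in the ratios was not tested. Myeloid genes were lower in clones of 1 cell than in larger clones in every lineage, at 204 against 338 CPM in CD8 cells, 130 against 234 in Treg and 212 against 560 in Tconv. B cell genes stood at 151 against 72.5 CPM in CD8 cells, and immediate early genes at 4218 against 3344, with Fos (2.17), Zfp36 (1.84), Fosb (1.71) and Jun (1.68) past the fold.

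The CD8 ratios were also taken in restricted sets of cells, by choices made after seeing the data. Among CD8 cells without a UMI of the checkpoint genes Pdcd1, Havcr2 or Lag3 (392 against 79 cells), Satb1 was at 3.83 and Tcf7 at 2.37, whereas Klf2 turned to 0.851 (0.749 to 0.971). Without the cells that had a Fos, Fosb or Egr1 UMI, Tcf7 stayed at 3.36 and Lef1 at 3.22, and Klf2 was at 1.12. Tcf7, Lef1 and Satb1 were thus on the same side of 1 in both, and Klf2 was not.

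Cells were then scored by how many of the 8 genes they showed. After thinning, at least 3 members were seen in 24.9% of Tconv, 24.1% of NKT cells, 16.6% of CD8 cells, 7.33% of Treg and 1.67% of myeloid cells, and without thinning in 37.1, 48.1, 38.4, 15.6 and 4.56%. A cell with no member was seen in 21.2% of Tconv, 22.8% of NKT cells, 31.3% of CD8 cells, 33.2% of Treg and 58.9% of myeloid cells. Treg had the highest share without a member of the 4 lineages, close to that of CD8 cells, and 41.2% of them had exactly 1. By clone size, at least 3 members were seen in 19.1% of CD8 clones of 1 cell and 5.31% of cells of larger clones, 7.51 and 4.88% in Treg, and 26.6 and 10.3% in Tconv.

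**Figure D3:**
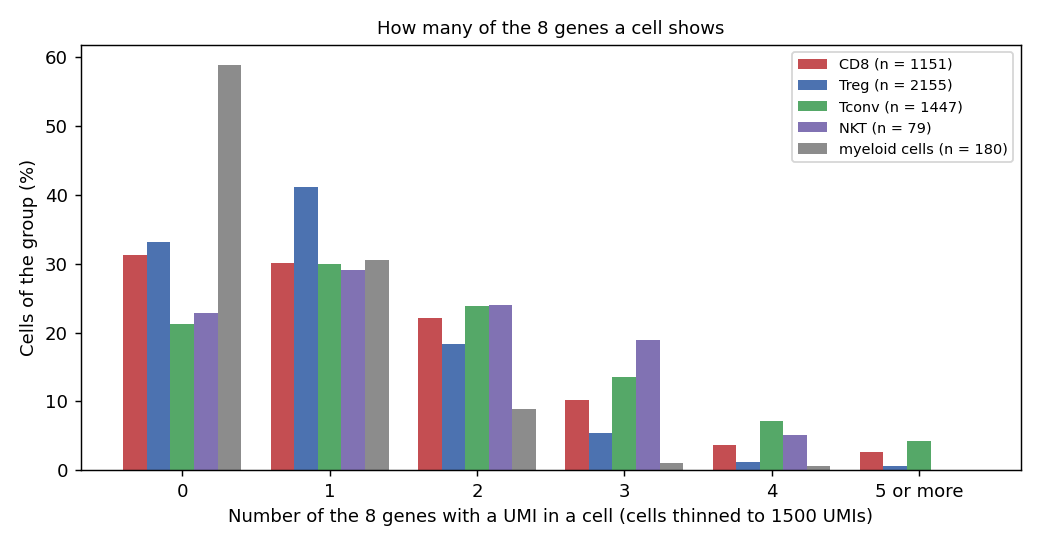
Share of cells (%) by the number of the 8 genes with a UMI, after thinning each cell to 1500 UMIs, in CD8, Treg, Tconv, NKT and myeloid cells. Treg peak at 1 gene (41.2%), myeloid cells at 0 (58.9%), and Tconv and NKT cells have the largest shares at 3 genes.

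The members tended to be read in the same cells, which is given as a description since all pairs share the library and depth was evened only by thinning. Over the 56 ordered pairs, the share of cells with one gene was higher among cells with the other than among cells without it in 54 pairs in CD8 cells, 48 in Treg, 54 in Tconv and 34 in NKT cells, with median differences of 9.44, 4.42, 9.75 and 2.02 percentage points. The exit receptor and its activator went together. Klf2 was seen in 72.6% of CD8 cells with S1pr1 and 44.0% of those without (a difference of 28.6 points, 18.6 to 37.4), in 65.5 and 41.0% of Treg, and in 76.4 and 49.6% of Tconv. For the pair of TCF factors, Tcf7 was seen in 34.5% of CD8 cells with Lef1 and 18.3% without, 16.6 and 5.30% in Treg, and 44.4 and 27.1% in Tconv. Klf2 and Klf3 paired likewise, Klf2 being seen in 62.3 and 44.5% of CD8 cells with and without Klf3, and in 68.0 and 41.1% of Treg.

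Satb1 in Treg did not follow this pattern. Treg with and without Satb1 were near-equal for Klf2 (43.0 and 42.5%) and S1pr1 (6.57 and 6.79%), while CD8 cells with Satb1 had more Lef1 (23.6 against 9.68%) and more Klf2 (59.5 against 43.2%) than those without. Id3 in CD8 cells went with Tcf7 (38.3 against 18.7%) while Klf3 was seen in 11.7% of those with Id3 and a near-equal share of those without.

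The cells that showed at least 3 members were compared with those that showed none, by genes outside the set. Their median depth was lower (3183 against 4650.5 UMIs in CD8 cells, 2650.5 against 3526 in Treg, 2680 against 3022 in Tconv) and their mitochondrial share higher (2.72 against 2.24%, 2.28 against 1.62% and 2.69 against 2.05%), and the part of these in the ratios was not tested. Foxp1 was 3.77-fold higher in CD8 cells, 3.30-fold in Treg and 2.52-fold in Tconv. Also high in all 3 lineages were Txnip, a brake on glucose uptake (2.63-fold in CD8 cells), Tsc22d3, a glucocorticoid response gene (3.47-fold), and Dgka, which ends diacylglycerol signals (2.55-fold). At the low end were Ccl4, an effector chemokine (ratios of 0.122, 0.155 and 0.0986), Lag3 (0.130, 0.423 and 0.201), Nkg7, a cytotoxic granule gene (0.406 in CD8 cells), and Capg, which caps actin filaments (0.351). Of the further quiescence list, 11 of 14 counted genes were higher in CD8 cells, 8 of 16 in Treg and 9 of 16 in Tconv, where 7.89, 5.85 and 8.01% of all genes were so. Immediate early genes were higher as well, in 8 of 9, 8 of 10 and 7 of 10. Of the opposing list, 6 of 11 counted genes were lower in CD8 cells, 7 of 16 in Treg and 8 of 11 in Tconv. Over all counted genes 20.0, 11.7 and 17.6% were lower. In that list 2, 1 and 1 were higher, Cd69 among them (2.47, 1.75 and 1.67). Tconv had Ikzf2 at 124 CPM with at least 3 members and 343 with none, and the part of Treg with unread Foxp3 was not tested.

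Surface and effector genes sorted the members further, again in thinned cells split by whether a gene was read. With a checkpoint UMI of Pdcd1, Havcr2 or Lag3 (351 of 1151 CD8 cells), all 8 members were at least 1.5-fold lower in CD8 cells, from Id3 at 17.6 against 115 CPM (6.55-fold lower, 4.51 to 9.84) to S1pr1 (1.78-fold), 6 were lower in Treg and 4 in Tconv, where 2.87, 1.38 and 2.14% of all counted genes were. Treg with a checkpoint UMI had 1.32 times the Satb1 of those without.

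The cytotoxic genes Gzma, Gzmb and Prf1 gave at least 1.5-fold lower levels of 6 members in CD8 cells, 5 in Treg and 4 in Tconv (2.14, 1.20 and 2.21% of all genes), with Id3 (0.186) and Tcf7 (0.372) lowest in CD8 cells. Treg with a cytotoxic UMI did not lose Klf2 (1.01) and had more Satb1 (1.32). Cells with Mki67 or Top2a, genes of cycling cells, had at least 1.5-fold less of 6 members in CD8 cells, 4 in Treg and 2 in Tconv (3.45, 2.57 and 3.49% of all genes). CD69, an early activation protein, is known to hold S1PR1 inside the cell, and here cells with a Cd69 UMI had more Klf2 (2.12 in CD8 cells, 1.68 in Treg, 1.49 in Tconv) and more S1pr1 (1.35, 1.47 and 1.25) than cells without.

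Id3 stood higher in a small set of CD8 cells. The 85 CD8 cells with a UMI of any Ly49 receptor gene (Klra family) had 352 CPM of Id3 (293 to 420). The other 1066 had 61.1 (54.2 to 68.7), a ratio of 5.76 (4.63 to 7.14). Id3 counts were uneven, with up to 26 of the 410 UMIs of all 1259 CD8 cells in 1 cell, which the intervals do not cover. Bach2 (2.93) and Tcf7 (1.93, 1.55 to 2.39) were also higher in them, whereas S1pr1 had a ratio of 1.21 with an interval that included 1. The Klra genes are near-identical copies, so that which of them a read belongs to is uncertain.

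Treg with a UMI of Il1rl1, the IL-33 receptor, or Areg, the growth factor amphiregulin, numbered 709 against 1446 without. Klf2 was 1.53-fold higher in them (1.45 to 1.62) and Satb1 1.56-fold higher, while Tcf7 had a ratio of 0.521 and Lef1 of 0.623. In these cells, with either transcript, Klf2 and Satb1 thus lay on one side of 1 and the TCF factors on the other.

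**Figure D4:**
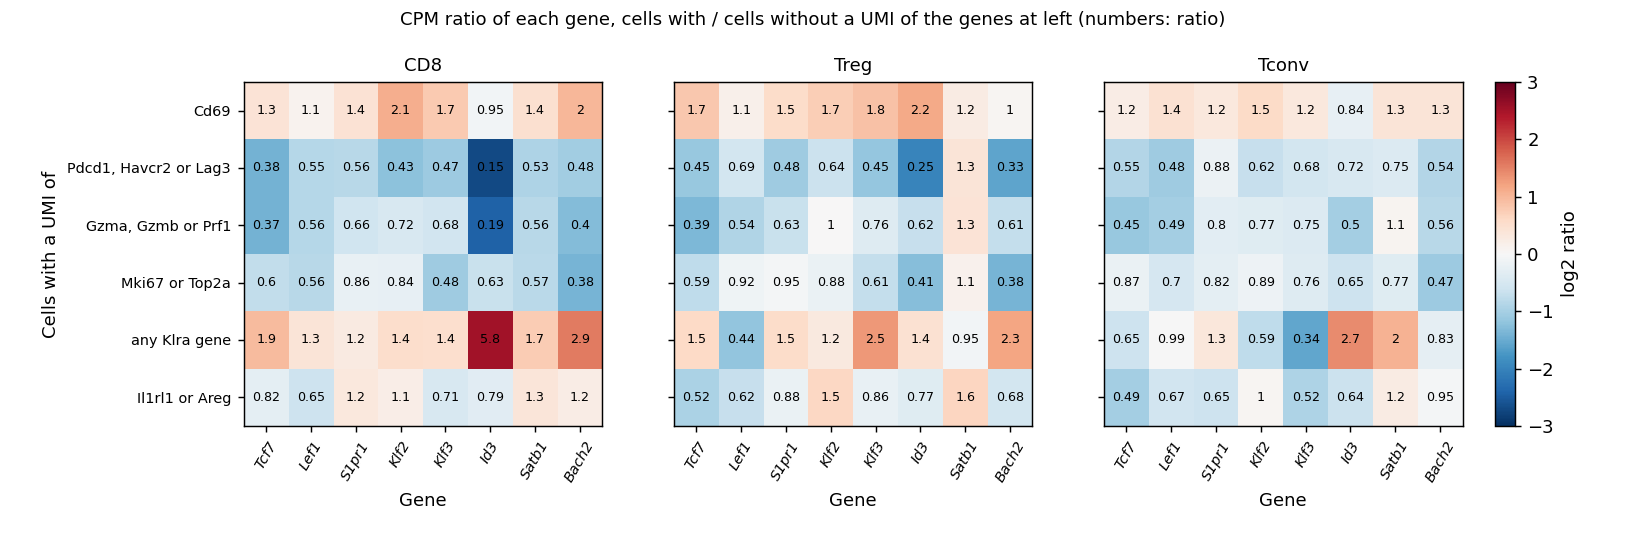
CPM ratio of each gene in cells with against cells without a UMI of the genes at left, in CD8 cells, Treg and Tconv thinned to 1500 UMIs for the split, with colour on a log2 scale from blue (lower) to red (higher). The checkpoint row is blue throughout CD8 cells, and in Treg the Satb1 column stays near or above 1.

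Tumor of origin could be read for few cells. Of the 8949 kept cells in the hashtag library, 939 had a tag that named 1 tumor and 5 had tags of both. There were 1730 tag UMIs in all, and 1 was enough to name a tumor, so that the tumor of a cell is uncertain. Treg were the lineage with most tagged cells, 245 from B16 and 55 from B16-IL33, as against 103 and 19 CD8 cells and 164 and 17 Tconv. In all, 5 of 8 members passed the fold in Treg, 3 higher with B16-IL33 tags and 2 lower. Only Klf2 and Satb1, both higher, had intervals on one side of 1. They were also the only 2 members with at least 200 UMIs over both groups. Of the 771 genes with that many, 5.71% were higher and 5.06% lower. Klf2 stood at 685 CPM with B16-IL33 tags (124 UMIs, 34 of 55 cells) and 334 with B16 tags (314 UMIs, 101 of 245 cells), a ratio of 2.05 (1.65 to 2.53). Satb1 stood at 353 against 149 CPM, a ratio of 2.37 (1.74 to 3.21). Tcf7 had 4 against 51 UMIs (0.407, 0.107 to 1.11), S1pr1 2 against 31 (0.335), Klf3 9 against 29 (1.61), Lef1 8 against 62 (0.670), Id3 2 against 8 and Bach2 1 against 7, all with intervals that included 1. In Treg with a Cd3 UMI and no myeloid, B cell or melanoma UMI (11 against 82 cells), Tcf7 and S1pr1 turned to 1.47 and 1.20, and Klf3 had no UMI in the smaller group.

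The 4 tags spread within each tumor. In Treg, Klf2 was at 459 CPM with the first B16 tag and 265 with the second, and at 677 (18 cells) and 688 (37 cells) with the B16-IL33 tags. Both B16-IL33 values were above both B16 values, while the intervals of the first tags overlapped. Satb1 was at 161 and 142 CPM and at 498 and 298. However, the 2307 Treg with no tag, which hold cells of both tumors, had 725 CPM of Klf2 and 297 of Satb1, a Klf2 level above all 4 tags. Tagged Treg also differed in depth and in other genes: the median was 2467 UMIs with B16-IL33 tags and 3401 with B16 tags, immediate early genes stood at 6377 against 4863 CPM, and B cell genes at 624 against 359. Myeloid genes stood at 1099 against 935 CPM, and at 264 in the Treg with no tag. By tag they stood at 0 with the first B16-IL33 tag, 1520 with the second, 2059 with the first B16 tag and 166 with the second. Their part in the result was not tested. Tags numbered 1 alone gave a Klf2 ratio of 1.48 (0.983 to 2.16) and tags numbered 2 one of 2.59.

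In Tconv, where 17 cells had B16-IL33 tags, Klf2 was at 2139 CPM in 8 cells of one tag and 372 in 9 cells of the other, against 768 and 469 with the B16 tags. A single cell gave 23 of the 57 Klf2 UMIs, and the groups overlapped. Satb1 in Tconv was at 518 against 190 CPM, a ratio of 2.72 (1.64 to 4.35) from 23 and 87 UMIs, with 393 and 651 at the B16-IL33 tags and 208 and 166 at the B16 tags. In CD8 cells Klf2 was at 416 CPM in 19 cells with B16-IL33 tags and 521 in 103 with B16 tags, and the order seen in Treg was not present.

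**Figure D5:**
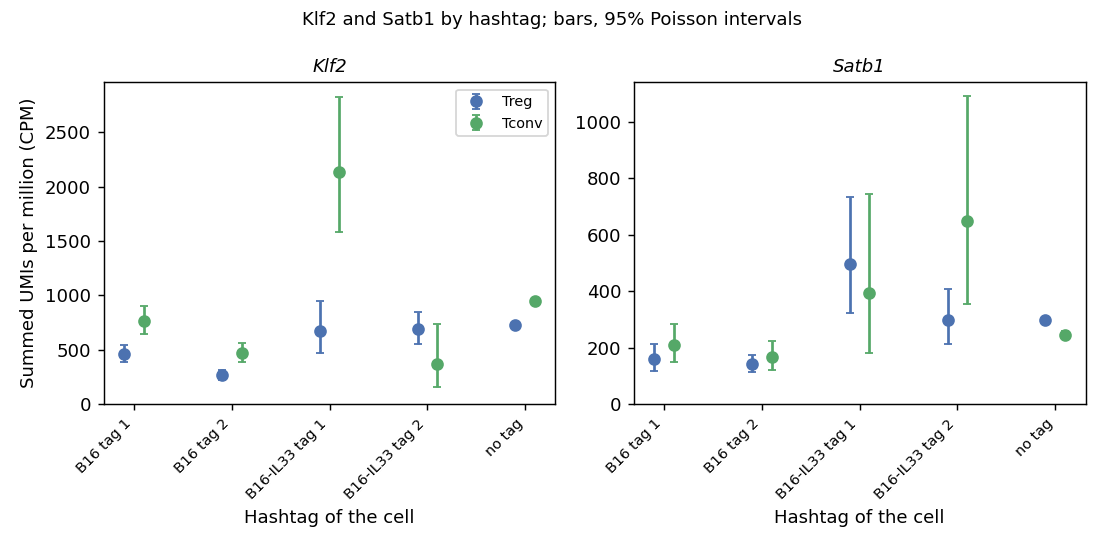
Klf2 (left) and Satb1 (right) in CPM by hashtag in Treg and Tconv, with 95% Poisson intervals as bars; each point pools the cells of 1 tag, 8 cells or more. Treg points of both B16-IL33 tags are above those of both B16 tags, the untagged Treg are at 725 CPM for Klf2 and 297 for Satb1, and the 2 B16-IL33 tags of Tconv lie far apart for Klf2.

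Genes outside the set were ranked by how closely their level followed the members over 7 groups (lineages by clone size), as a correlation of log levels with the members' mean over 6122 genes, given without a p since the groups share 1 library. The closest were Nsg2 (r = 0.994), Eif4b (0.976) and Rassf2 (0.948), followed by Slc12a7, Eif4a2, Skp1a, Igfbp4, Rps27, Neurl3 and Pim2 (0.911). Among the members themselves, each of them part of that mean, Lef1 followed it most closely (0.972), then Klf3 (0.931), Tcf7 (0.922), Bach2 (0.862), S1pr1 (0.800) and Id3 (0.710), and Satb1 (0.416) and Klf2 (0.263) least.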

How the data were processed

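Gene expression, T cell receptor and hashtag libraries of 1 pool of sorted tumor T cells were used. The counts are those deposited by the authors, UMIs per gene and barcode from Cell Ranger (version 3.1.0 in the matrix header, 6.1.1 in the submitters' processing notes), mapped to a combined human and mouse reference, of which the mouse (mm10) genes were analysed. Per the study's methods, barcodes with 200 to 2500 genes and under 5% mitochondrial UMIs (13 genes) were kept. No doublet caller was run, and 335 cells of the 4 lineages had at least 2 productive beta chains. Cells were grouped by transcripts, clone size and tag. The labels give both libraries 1 pooled condition, so tags with at least 1 UMI of 1 tumor's pair set the tumor.

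UMIs were summed per group and given as CPM with exact Poisson intervals, shares with Clopper-Pearson intervals, differences of shares by the square-and-add method, and ratios with exact conditional binomial intervals. The background share covers genes with at least 200 UMIs over both groups. Named beside the members were the 5 highest and 5 lowest of each list per comparison, the 10 genes most like the members over groups of lineage by clone size (log2 of CPM plus 1; 7 groups rather than 8, since larger clones held 1 NKT cell), and the 10 genes highest and lowest with at least 3 members. The members and lists were chosen with earlier results of these data known. Alternatives were other depths of thinning, filters, lineage, clone and tag rules, a fold of 2 and, chosen after seeing the data, cells without certain UMIs. Python 3.11.15, NumPy 2.4.6, SciPy 1.17.1, pandas 2.3.3 and matplotlib 3.10.9 were used. One gene of the further list, with the split and the restricted set of cells that used it, is not reported here. The scripts were tested on simulated data. Positions are those of GENCODE vM21.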

Additional observations from a re-analysis of the deposited data

Results flagged for a closer look

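Genes of the human part of the combined reference drew a few counts in this library of mouse cells, which no comparison used. The human gene TCF7 had 12 UMIs, against 4950 of mouse Tcf7 in all barcodes (0.242%), and the human gene SATB1 had 5, against 8268 of mouse Satb1. Both were above the 3 counts that a count of 0 allows.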

How the results depend on the processing

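Of 879 values recomputed under alternatives, 706 moved by less than their counting interval or, for counts of members, by less than 1.5-fold, 165 moved more and 8 reversed. Of the 56 member ratios 35 were past 1.5-fold, and these kept their direction in 374 of 382 alternatives: 48 of 48 for Treg against Tconv, 32 of 32 for CD8 against Tconv, 31 of 32 for NKT against Tconv, 111 of 112, 39 of 40 and 67 of 69 for clones in CD8, Treg and Tconv, and 46 of 49 for tags. The reversals were S1pr1 in NKT cells with lineage genes counted from 2 UMIs (1.98), Klf2 in CD8 clones without checkpoint UMIs (0.851), Lef1 in Treg clones of at least 3 cells (0.821), Id3 in Tconv with clones counted within the lineage (0.964) or without Fos, Fosb and Egr1 UMIs (0.726), and, in Treg by tag with a Cd3 UMI required and no myeloid, B cell or melanoma UMI (11 against 82 cells), Tcf7 (1.47), S1pr1 (1.20) and Klf3 (0, with no UMI in the smaller group). The cause was not tested.

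The count of members past the fold, 4 for CD8 against Tconv, became 8 with no upper gene limit, 1 at a fold of 2 and 8 without Fos, Fosb and Egr1 UMIs. For CD8 clones 8 became 4 without checkpoint UMIs, for Treg clones 3 became 5 with no upper gene limit, for Tconv clones 5 became 2 at a fold of 2 and 3 with clones counted over kept cells or within the lineage, and for tags 5 became 8 with lineage genes from 2 UMIs. The share of cells with at least 3 members in CD8, Treg, Tconv and NKT cells was 9.65, 3.84, 14.7 and 11.1% when thinned to 1000 UMIs and 38.4, 15.6, 37.1 and 48.1% without thinning. It was 6.13% in Treg under another random draw, and 9.07, 4.48 and 7.69% in CD8, Treg and NKT cells without Fos, Fosb and Egr1 UMIs. The median difference of co-detection was 1.92 points in Treg and 0 in NKT cells when thinned to 1000 UMIs, 16.1, 8.54, 15.2 and 7.13 points in the 4 lineages without thinning, and 1.78 and 0 in Treg and NKT cells without those early genes.

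Clones could not be compared in NKT cells, where larger clones held 1 cell, and no paired analysis was possible because the labels of 1 pool give no replicates. Intervals cover counting error only, with PCR, cell to cell and mouse to mouse spread not included. Bach2, with 7 to 148 UMIs a lineage, and the tagged cells, with 17 to 55 B16-IL33 cells a lineage, are limited by depth.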

Other observations

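Barcodes outside the limits differed from the kept cells, which had 806 CPM of Klf2, 158 of Tcf7, 101 of Lef1 and 246 of Satb1. In the 766 barcodes left out only for having over 2500 detected genes, Klf2 stood at 146 CPM, Tcf7 at 27.3, Lef1 at 22.8 and Satb1 at 60.2. In the barcodes left out only for their mitochondrial share, Klf2 stood at 523 CPM, Tcf7 at 128 and Satb1 at 322.

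NKT cells with the invariant alpha chain segments (16 cells) were set beside those with another alpha chain (11 cells). Tcf7 stood at 213 and 357 CPM (13 and 14 UMIs), and Klf2 at 262 and 535 (16 and 21 UMIs). Satb1 stood at 278 and 510 CPM (17 and 20 UMIs). For each of these genes the intervals overlapped.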
